A study of Mus musculus with 4 samples.

Results

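Mymx-high cells are cultured muscle stem cell progeny with a high transcript level of Mymx, the fusion microprotein also called myomerger or myomixer. They were chosen by measured values, from all 4 single-cell tables, as cells with a deposited log2(CPM + 1) of at least 7 for Mymx, under 7 for Cdkn1c, under 6 for Ckm and under 8 for Car3, where CPM is UMIs (molecules counted once each) scaled to the same total in every cell. The Mymx limit corresponds to 127 CPM. The limits on the other 3 genes leave out cells with much Cdkn1c (the cell cycle inhibitor p57), Ckm (muscle creatine kinase, a gene of late differentiation) or Car3 (a carbonic anhydrase of slow fibres). The gate held 407 of 5913 cells, or 6.88%. Because of this choice, every difference below between them and other cells is a description without a test.

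The source was muscle stem cells of wild-type C57BL/6 mice. They spent 7 days on polydimethylsiloxane, a silicone elastomer, in DMEM with 10% fetal bovine serum, and their RNA was read with a droplet-based 3' single-cell method. There was 1 library for each of 4 groups: aged cells on stiff (29 kPa), aged cells on soft (12 kPa), young cells on stiff (29 kPa) and young cells on soft substrate (12 kPa). The ages, the number of mice behind a library and whether they were pooled are not given in the labels. With 1 library per group, age and stiffness cannot be told apart from the library, and no test was run or error over samples given. Below, 4 values in a row always stand for aged stiff, aged soft, young stiff and young soft.

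Skeletal muscle fibres form when committed mononucleated cells, the myocytes, fuse with one another. Mymk (myomaker), a membrane protein, brings the outer leaflets of apposed membranes together, and Mymx then drives the opening of the fusion pore. Both are switched on after Myog (myogenin) and cell cycle exit.

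The gated cells numbered 150 of 1739, 109 of 1333, 78 of 1481 and 70 of 1360. Their share of all cells was 8.63% in the aged stiff library, with an exact binomial 95% interval of 7.35 to 10.0%. It was 8.18% (6.76 to 9.78%) in aged soft, 5.27% (4.19 to 6.53%) in young stiff and 5.15% (4.03 to 6.46%) in young soft. These intervals cover counting error within a library only. The aged intervals lie above the young ones, whereas the stiff and soft intervals of 1 age overlap. Set against cells with Mymx at 7 or more instead of all cells, the order of the ages turned round: the gate took 31.3%, 29.1%, 41.7% and 43.5% of 479, 374, 187 and 161 such cells. Of the 794 such cells left out, 639 were over the Ckm limit, 233 over the Cdkn1c limit and 132 over the Car3 limit, and a cell may be over several. The class over the Ckm limit and under the Car3 limit made up 39.4%, 35.1%, 10.2% and 11.03% of cells, so the cells that surround the gate differed between ages.

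**Figure D1:**
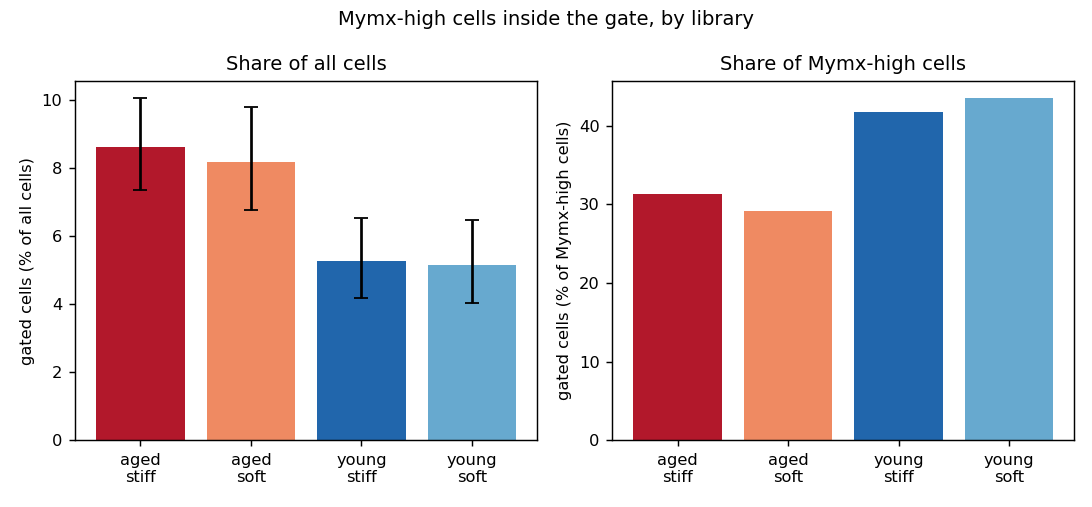
Bars give the gated cells of each library as a percentage of all its cells (left, with exact binomial 95% intervals) and of its cells with Mymx at 7 or more (right, no interval drawn). Aged libraries stand higher on the left, at 8.63% and 8.18%, and lower on the right, at 31.3% and 29.1%.

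The limits cut through continuous distributions. The lowest gated Mymx value was 7.001 and the highest one left out by that limit alone 6.994, with 82 gated and 97 outside cells within 0.5 of it. Ckm stood at 5.99 just inside and 6.01 just outside, with 45 and 41 cells within 0.5, and 443 cells failed on Ckm only. Cdkn1c stood at 6.98 inside and 7.03 outside. Car3 stood at 7.9999 inside and 8.004 outside. Every gated cell carried at least 3 Mymx UMIs.

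Total UMIs per library ranged from 44004619 to 68244857. Gated cells had median depths of 39258.5, 35983, 33136.5 and 42785.5 UMIs, against 36694, 32789.5, 28228 and 35079 in the other cells, and thus were the deeper cells in every library. Mitochondrial counts had medians of 5.23 to 5.60% in gated and 5.25 to 5.97% in other cells. Of the 407 gated cells, 28 had under 1% mitochondrial counts and 31 lay above the 95th percentile of UMIs of their library. Doublets were neither called nor removed, and only 1 gated cell carried a barcode that occurred in a second library.

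Of the 3 marker genes beside Mymx that go with the label of fusion-competent myocytes, Mymk bore it out against the cells at large. Actc1 did so against the cells at large in young libraries only, and Meg3 was lower in the gate in 3 libraries and level in aged stiff. Mymx itself, which the rule used, averaged 451, 504, 417 and 403 CPM in gated and 114, 114, 36.4 and 36.1 in other cells. Mymk had 2169, 2176, 2353 and 2055 CPM in gated cells, against 1709, 1523, 1025 and 913 in the other cells. It was higher in the gate in all 4 libraries, but not above the Ckm-positive cells, which had 2409, 2351, 2369.8 and 2267 CPM. Actc1, the cardiac actin of immature muscle, had 1735, 1461, 3306 and 3113 CPM in gated and 1714, 1497, 1479 and 1397 in other cells, so that the aged libraries hardly differed and the young ones differed by over 2 times. It was lower in the gate than in Ckm-positive cells in all 4 libraries, by log2 ratios of -0.58, -0.89, -0.41 and -0.40. Against the Cdkn1c-high cells defined below, its ratios were -1.11, -0.995, -0.13 and -0.23. Meg3, an imprinted long noncoding RNA, had 15.9, 2.71, 2.02 and 2.60 CPM in gated cells, against 15.7, 20.9, 25.2 and 27.8 in the other cells and 28.9, 48.4, 105 and 146 in Ckm-positive cells. In the aged stiff library 3 cells held 95.9% of the gated Meg3 UMIs. The cells are therefore called Mymx-high or gated cells below.

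The 5 markers of committed myogenic cells were abundant and summed to 9797 to 10831.5 CPM in gated and 6519 to 8969 in other cells. Of the 5, the number higher in the gate was 4, 3, 4 and 3. Cdh15 was lower in each, with 199, 197, 135 and 146 CPM against 215, 221, 148 and 156. Myog had 2409, 2338, 3258 and 2731 CPM in gated cells, against 1745, 1872, 1459.9 and 1468 in the others, and Myod1, the determination factor above it, had 996, 832, 1065 and 892 against 896, 931, 936 and 898. Pax7, which marks muscle stem cells, was near 0, with 6.94, 4.09, 4.87 and 4.02 CPM in gated and 34.4, 45.1, 69.5 and 76.4 in other cells. The 4 fibroadipogenic markers summed to 2.51 to 4.67 CPM in gated cells, against 6.88 to 16.6 in other cells, and Lum was at 0 in all 4 gates. The macrophage markers summed to 0.410 to 1.72 CPM in gated and 1.15 to 1.71 in other cells, with Adgre1 at 0 in all 4 gates. The 3 glial markers found in the tables summed to 0.744 to 2.40 CPM in gated and 1.52 to 2.49 in other cells. The smooth muscle and pericyte markers summed to 1.97 to 3.32 CPM in gated and 16.4 to 38.9 in other cells. Both endothelial markers found in the tables, Cdh5 and Kdr, were at 0 in gated cells. Markers of cell types outside the myogenic lineage were thus at or near 0 in the gate. The 5 satellite cell markers summed to 58.6 to 94.3 CPM in gated and 207 to 327 in other cells, and the 4 markers of cycling cells to 20.6 to 138 in gated and 162 to 649.9 in other cells.

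**Figure D2:**
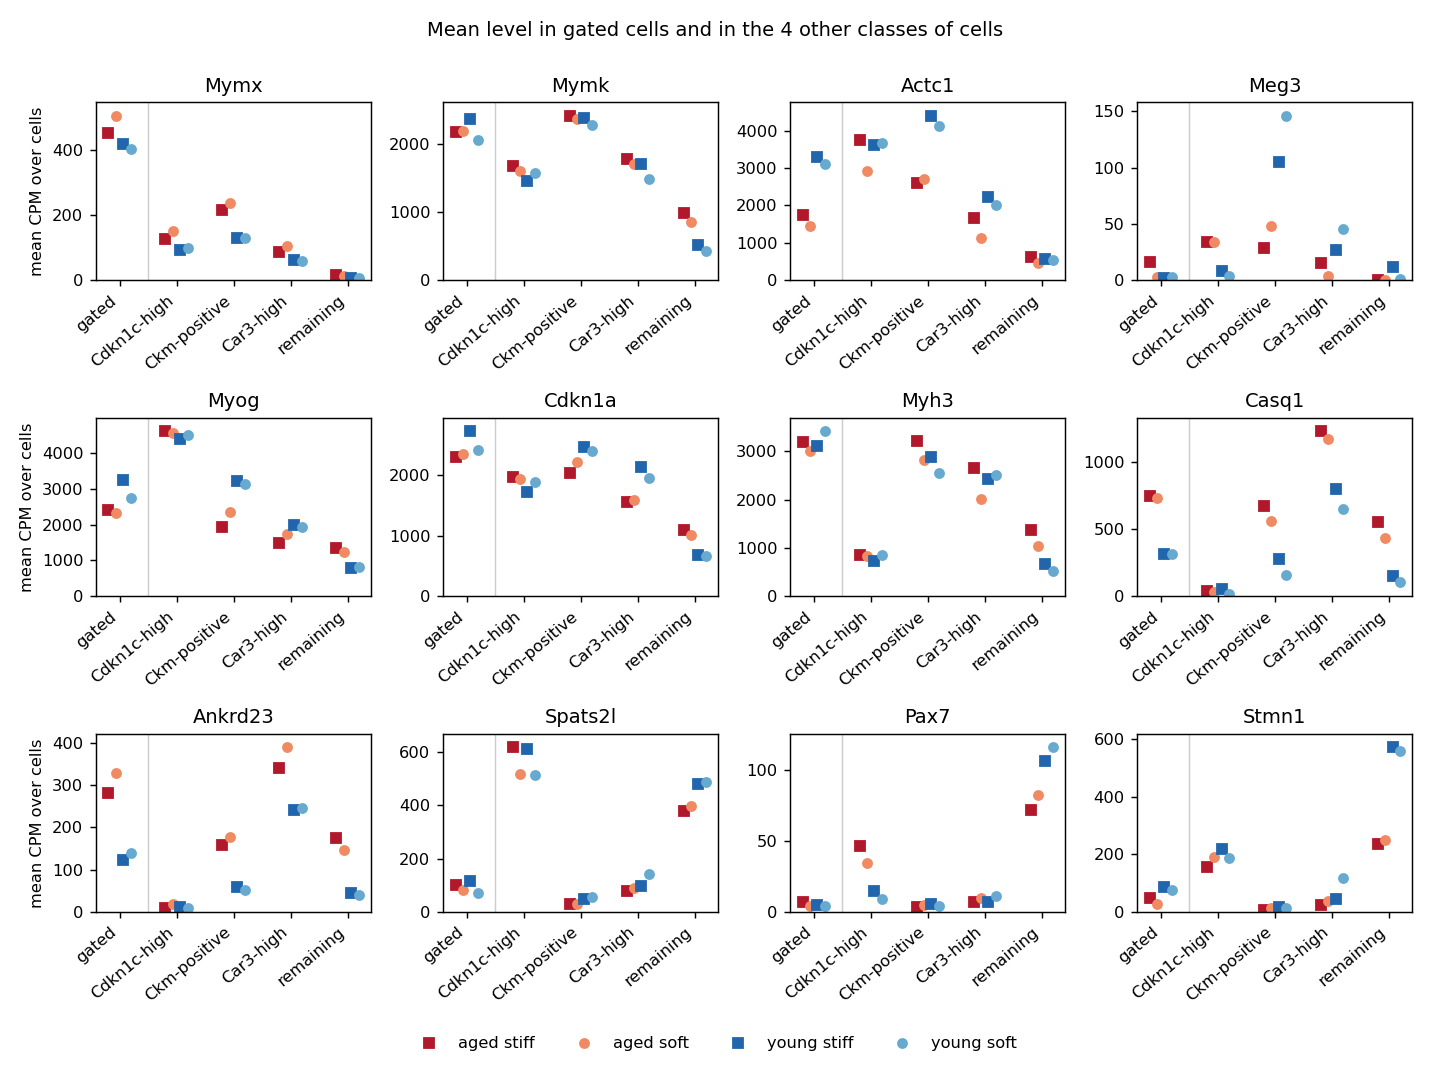
Each point is the mean CPM over the cells of 1 class in 1 library (squares stiff, circles soft; red aged, blue young); gated cells stand left of the grey line. Mymk, Cdkn1a and Myh3 are about as high in gated as in Ckm-positive cells, Casq1 and Ankrd23 separate the gate from Cdkn1c-high cells, and Meg3 is low in the gate.

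The first question was how Mymx-high cells differ from all other cells of the same library. Differences are log2 ratios of the mean CPM plus a pseudocount of 5, which understates those of low genes, over 5300 genes that reached 20 CPM in either class in every library. Gated cells had 0 genes that were 2 times or more higher in all 4 libraries (0.0%) and 127 likewise lower (2.4%), with the 4 gate genes left out. At 1.5 times, a limit added after the values were seen, 15 genes were higher (0.283%) and 272 lower (5.13%). Without the aged stiff library 228 were at least 2 times lower, and on summed UMIs in place of the mean over cells 73 were. The median ratio of all genes was -0.04 and moved to 0.08 under median-of-ratios scaling. Ckm-positive cells are among the other cells and were more frequent in aged libraries, as given above, and their part in the ratios of the 4 libraries was not tested.

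Genes with the largest ratios were of moderate level and diverse function. Sbk2, which encodes a protein kinase, had 56.2, 45.3, 59.7 and 57.1 CPM in gated cells, against 24.6, 22.2, 19.2 and 15.9 in the others. Ccdc141, which encodes a coiled-coil protein, had 152, 150.4, 181 and 211 CPM in gated and 88.3, 80.8, 62.1 and 69.6 in other cells. Both groups of cells were apart in every library, and the ratio was larger in each young library than in each aged one, with log2 values of 1.05, 0.89, 1.42 and 1.57 for Sbk2 and 0.75, 0.86, 1.47 and 1.53 for Ccdc141. Lman1l, a lectin-like relative of the cargo receptor Lman1, had 206, 204, 131 and 115 CPM in gated and 114, 99.9, 56.9 and 44.5 in other cells. Gadd45a, a stress-induced gene of growth arrest, had 333, 354, 400.0 and 377 CPM against 212, 190.2, 159 and 156. With age they differed in opposite ways: Lman1l was higher in aged than in young gates and Gadd45a somewhat lower.

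The other 8 of the 12 named genes were Aif1l (an actin-binding protein), Patj (a cell polarity scaffold), Awat2 (a wax ester synthase), Ppp1r27 (a regulatory subunit of protein phosphatase 1), Mycl (a Myc family factor), Eda2r (a receptor of the TNF receptor family), Fn3k (fructosamine 3-kinase) and Iffo1 (an intermediate filament family member). Log2 ratios of the 12 ran from 0.61 to 1.57. For 10 of the 12 both young libraries had larger ratios than both aged ones. How many of all measured genes show that order was not counted, so it is not read as a trait of the 12. All 12 were higher in gated than in Ckm-positive cells in the 4 libraries, by log2 0.15 to 1.25, beside 37% of all genes measured there. Against Cdkn1c-high cells 10 were higher in all 4 libraries, beside 25.1% of all genes, and Mycl and Patj were not higher in the aged libraries. Both classes are among the other cells used to choose the 12, so these counts follow in part from that choice. Eda2r had 104, 103, 95.3 and 106 CPM in gated cells, against 64.7, 55.5, 51.3 and 43.9 in the others. Mycl had 31.1, 30.4, 41.3 and 46.2 CPM in gated cells, against 17.9, 17.4, 18.2 and 19.3 in the others. Eda2r was nearly even across the 4 gates, and Mycl was lower in the aged ones.

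**Figure D3:**
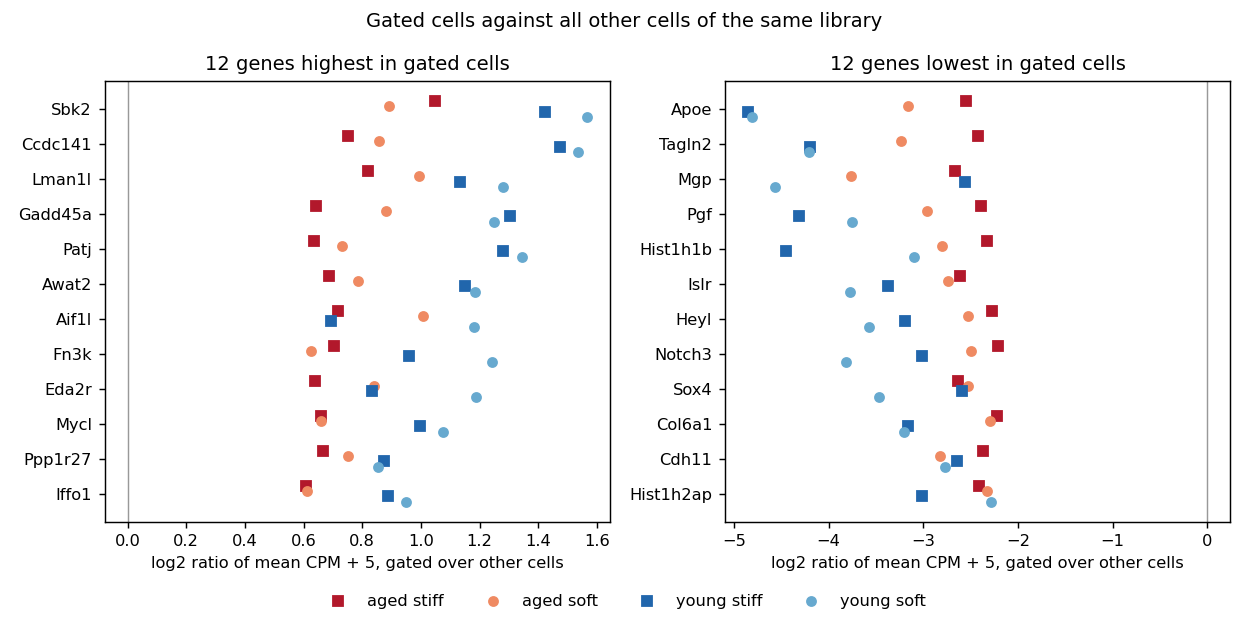
Points give the log2 ratio of mean CPM + 5 of gated over other cells in each library for the 12 genes with the largest (left) and the 12 with the smallest ratios (right). All points on the left lie between 0.61 and 1.57 and all on the right between -4.85 and -2.22, with red aged points mostly nearer 0.

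Promoters of these 12 genes were searched for CAGCTG, a form of the E-box that myogenic helix-loop-helix factors such as Myod1 and Myog can bind. The search was added after the values were seen. RefSeq start sites on GRCm38.p6 were found for 10 of the 12, with windows of 250 bases before to 50 after the start, and 5 of the 10 (Awat2, Ccdc141, Lman1l, Patj and Ppp1r27) held the motif in at least 1 window. The motif is its own reverse complement, so both strands are covered. It occurs in 16.3% of all 32851 windows and in 18.3% of 27025 genes. Of these genes the windows of Lman1l, Ccdc141 and Ppp1r27 are shown because each holds a single CAGCTG, in capitals, over 200 bases before the start and the genes are among the 12 highest in gated cells. They lie at chr9:57620725-57621024, chr2:77170586-77170885 and chr11:120551083-120551382, each on the minus strand, written 5′ to 3′ along the gene.
Lman1l: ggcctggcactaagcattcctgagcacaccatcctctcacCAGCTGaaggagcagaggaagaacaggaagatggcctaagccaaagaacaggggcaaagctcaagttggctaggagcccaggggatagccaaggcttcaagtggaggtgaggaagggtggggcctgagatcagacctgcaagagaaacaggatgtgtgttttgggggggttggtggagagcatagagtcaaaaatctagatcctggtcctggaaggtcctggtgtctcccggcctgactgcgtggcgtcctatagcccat
Ccdc141: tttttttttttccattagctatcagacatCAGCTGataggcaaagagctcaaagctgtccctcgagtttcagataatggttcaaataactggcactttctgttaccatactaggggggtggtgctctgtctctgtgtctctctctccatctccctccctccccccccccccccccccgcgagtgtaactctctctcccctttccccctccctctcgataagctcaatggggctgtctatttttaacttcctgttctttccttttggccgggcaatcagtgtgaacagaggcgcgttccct
Ppp1r27: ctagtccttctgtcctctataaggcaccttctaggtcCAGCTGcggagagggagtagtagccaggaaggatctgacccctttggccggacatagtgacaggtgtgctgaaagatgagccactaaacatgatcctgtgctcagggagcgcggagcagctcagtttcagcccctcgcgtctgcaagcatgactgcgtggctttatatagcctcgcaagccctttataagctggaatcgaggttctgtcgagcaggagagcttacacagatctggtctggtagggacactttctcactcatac
A match is a description of the letters in the window and not a bound site.

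The 12 genes with the lowest ratios included genes of progenitors, of the matrix and of dividing cells. Apoe, apolipoprotein E, had 4.01, 1.74, 0.909 and 2.57 CPM in gated cells, against 47.7, 55.5, 166 and 207 in the others. Tagln2, an actin-binding protein, had 11.5, 7.34, 10.5 and 9.76 CPM against 83.6, 112, 279 and 268. Sox4, a factor of progenitor cells, had 14.5, 18.3, 32.8 and 14.7 CPM against 116, 129, 223 and 213. Each was lower in the gate in all 4 libraries, and for Apoe and Tagln2 both young ratios were larger in size than both aged ones. The matrix inhibitor of mineralisation Mgp had 46.0, 23.8, 160.2 and 41.0 CPM in gated and 319, 384, 972 and 1086 in other cells, but 3 cells held 87.5% of its UMIs in the gate of young stiff. Cdh11, a cadherin of mesenchymal cells, had 21.8, 18.9, 37.5 and 37.7 CPM against 133, 164, 261 and 286. Islr, Heyl (a Notch target), Notch3, Col6a1, Pgf (placental growth factor) and the histone genes Hist1h1b and Hist1h2ap complete the 12 lowest. Pgf had 0 UMIs in the gate of aged soft, where 3 UMIs would be 0.726 CPM, and Notch3 0 in that of young soft, where they would be 0.933 CPM, so these ratios rest on the pseudocount. Replication histone transcripts are poorly captured by poly(A) priming and are nearly identical between copies, so the levels of the 2 histones are uncertain.

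Contractile genes were higher in the gate as a group. Among genes of the embryonic and cardiac-type sarcomere, 21 of 24 listed were measured and 16 had a positive ratio in all 4 libraries, with a median log2 ratio of 0.60. Over all 5300 measured genes 25.4% were positive and 34.5% negative in all 4 libraries, and the median was -0.04. Myh3, the embryonic myosin heavy chain, had 3192, 3012, 3107 and 3411 CPM in gated and 2278, 1771, 1297 and 1196 in other cells. Csrp3, a Z-disc protein, had 991, 1029, 1018 and 869 CPM in gated and 658, 562, 485 and 403 in other cells. For both, the gates of the 4 libraries were more alike than the other cells were. Of the adult sarcomere and metabolic genes, 38 of 48 were measured without the gate genes, 35 were positive in all 4 libraries, and the median was 0.53. Ttn (titin) had 5468, 5569.9, 6082 and 8403 CPM against 3891, 3601, 3152 and 3494, and Acta1, the skeletal actin, 13754, 13723, 13372 and 13548 against 13357, 11628, 7565 and 7066. None of the measured members of either list passed 2 times in all 4 libraries.

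Membrane and signalling genes of the muscle fibre went the same way. Of 22 measured calcium handling genes, 19 were positive in all 4 libraries, beside 25.4% of all genes, and the median was 0.55. Casq2 (cardiac calsequestrin) had log2 ratios of 0.39, 0.77, 1.01 and 1.23 and Cacna1s, the voltage sensor of excitation-contraction coupling, 0.40, 0.66, 0.80 and 1.13. Of 12 measured endplate genes 9 were positive, beside the same 25.4% of all genes, with a median of 0.38. Chrng, the fetal subunit of the acetylcholine receptor, had 492, 504, 474 and 487 CPM in gated cells, against 386, 312, 203 and 188 in the others. Erbb3, a receptor for neuregulin, had 56.1, 64.2, 75.8 and 89.3 CPM in gated and 36.9, 38.6, 29.6 and 32.4 in other cells. Chrng was close to even across the 4 gates, and Erbb3 was lower in the aged ones than in the young ones.

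The fusion list as a whole lay close to all genes. Of 58 listed genes 33 were measured, 11 were positive and 14 negative in all 4 libraries, beside 25.4% and 34.5% of all genes, and the median was -0.09. Tmem182, a membrane protein of muscle, had log2 ratios of 0.43, 0.58, 1.16 and 1.34, and Cav3 (caveolin 3) of 0.38, 0.57, 1.01 and 1.10. Lower in the gate were Cd9, a tetraspanin, with ratios of -1.41, -1.52, -1.84 and -1.91, and the annexins Anxa1 and Anxa5, with -1.45, -1.90, -2.39 and -2.72 and -1.26, -1.72, -2.50 and -2.32. Adhesion and branched-actin genes on the list lay near 0, such as Cdc42 at 0.01 to 0.13 and Itgb1 at -0.12 to -0.07.

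Among 37 measured transcription factors the median was 0.08, with 15 positive and 11 negative in all 4 libraries, beside 25.4% and 34.5% of all genes. Mef2c, a partner of Myog, had 1488, 1601, 1538 and 1701 CPM in gated and 1104, 1009, 973 and 956 in other cells. Runx1 had log2 ratios of 0.57, 0.39, 0.77 and 0.84, and Cbfa2t3, a corepressor, of 0.30, 0.43, 0.97 and 1.13. Myf5, the early determination factor, had 18.8, 16.0, 11.8 and 17.1 CPM in gated cells, against 59.5, 67.5, 85.8 and 114 in the others. Mef2c, Runx1 and Cbfa2t3 were thus higher in the gate and Myf5 lower, while Myod1 lay within 0.19 of 0 on the log2 scale in each library. The cell cycle inhibitor Cdkn1a (p21) had 2287, 2344, 2716 and 2403 CPM in gated and 1581, 1558, 1236 and 1181 in other cells. Ccnd1, cyclin D1, had 5.23, 1.69, 5.90 and 12.0 CPM in gated and 32.1, 39.5, 53.6 and 61.0 in other cells.

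Genes of the cell cycle, matrix and growth signalling were mostly low in the gate, and many of them reached 20 CPM in the other cells only. Such a gene had to be lower in the gate to be measured at all, so the counts of these lists describe the genes that passed and support nothing about the lists. The G2 and M phase list had 13 measured genes out of 33, all 13 negative in the 4 libraries, beside 34.5% of all genes, with a median of -1.74. Mki67, a marker of dividing cells, had 6.79, 1.78, 10.4 and 11.8 CPM in gated and 30.7, 41.8, 135 and 137 in other cells. The S phase list had a median of -0.94 over 10 measured genes, 8 of them negative in all libraries, beside 34.5% of all genes. Of 21 measured matrix genes 18 were negative in all 4 libraries, beside 34.5% of all genes, and 8 were at least 2 times lower, beside 2.4% of all genes. The median was -1.65. Col3a1 had log2 ratios of -1.98, -1.998, -2.57 and -3.22 and Fn1 (fibronectin) of -1.35, -1.99, -2.59 and -3.66. Ligands, receptors and responders of growth signalling had a median of -1.15, with 7 of 21 at least 2 times lower, beside the same 2.4%. Spp1 (osteopontin) had 665, 587, 684 and 281 CPM in gated cells, against 1727, 2353, 5362 and 5973 in the others.

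Genes of the cytoplasmic actin cytoskeleton were lower. Of 36 measured actin remodelling genes 12 were at least 2 times lower in all 4 libraries, beside 2.4% of all genes, and the median was -0.37. Actb had log2 ratios of -1.50, -1.89, -2.18 and -2.35 and Actg1 of -1.22, -1.63, -1.98 and -2.25, both cytoplasmic actins. Tmsb10, a thymosin that binds actin monomers, had 5877, 5696, 5398 and 6418 CPM in gated and 4004, 3470.0, 2322 and 2668 in other cells, and Cfl2, the muscle cofilin, had ratios of 0.29, 0.36, 0.74 and 0.84, against -0.70, -1.03, -1.24 and -1.55 for Cfl1, the general one. Actin coding sequences are close to one another, and how reads that match several were counted is not given in the sources used here.

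**Figure D4:**
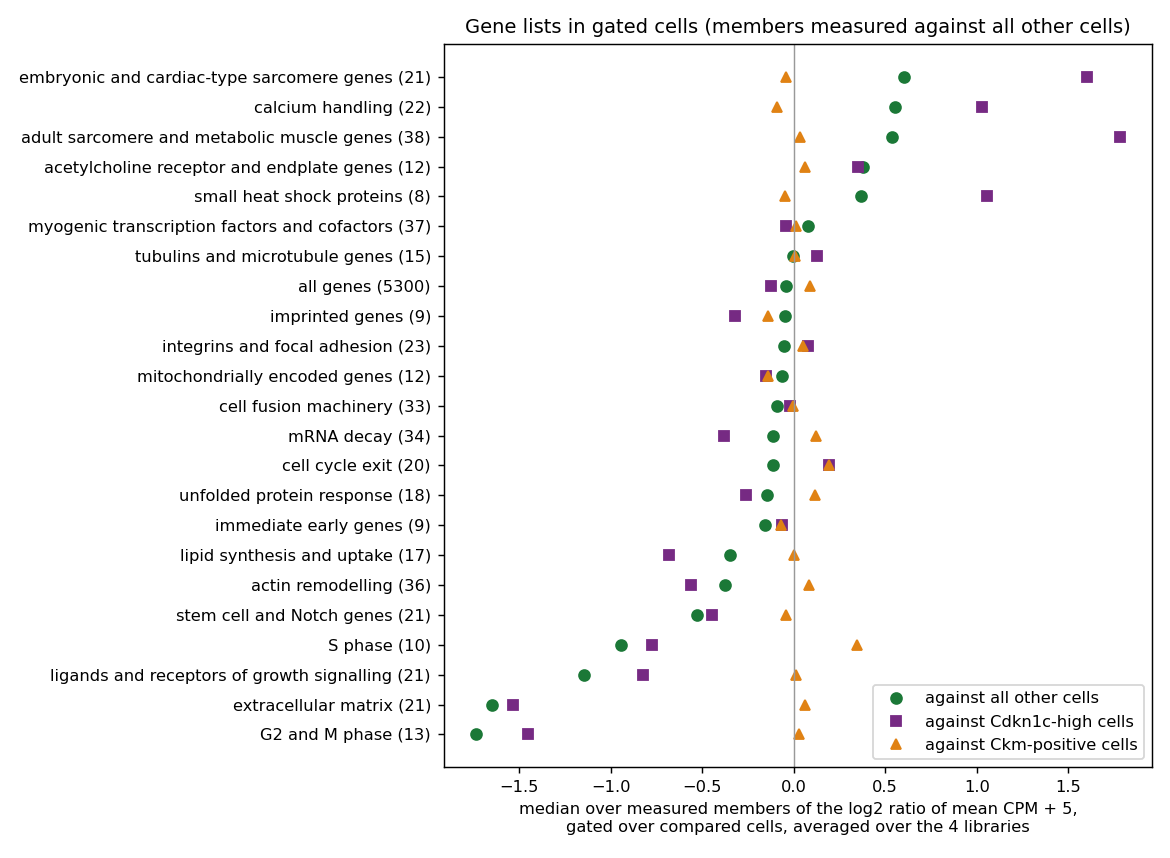
Each point is the median over a list's measured members of the log2 ratio of gated over compared cells, averaged over the 4 libraries; numbers in brackets count members measured against all other cells. Muscle lists lie right of 0 and cell cycle, matrix and growth signalling lists left of it against all other and Cdkn1c-high cells, whereas most medians against Ckm-positive cells lie near 0.

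Against the 233 Cdkn1c-high cells (Cdkn1c at 7 or more, Ckm and Car3 under their limits), gated cells differed in both directions. Of 5335 genes, 157 stood 2 times or more higher (2.94%) and 136 likewise lower (2.55%) in all 4 libraries, beside a median of -0.12 over all genes that moved to 0.01 under median-of-ratios scaling. At 1.5 times 328 were higher (6.15%) and 427 lower (8.0%). Of the 38 measured adult sarcomere genes 31 were at least 2 times higher, beside 2.94% of all genes, and the median was 1.78. A gene under 20 CPM in Cdkn1c-high cells had to be higher in the gate to be measured at all. The count therefore describes the genes that passed and supports nothing about the list. Casq1 (skeletal calsequestrin) had 744, 731, 312 and 311 CPM in gated cells, against 36.1, 31.3, 50.7 and 13.2 in Cdkn1c-high cells. Ankrd23, a stretch-responsive ankyrin protein that binds titin, had 281, 328, 123 and 139.9 CPM against 9.81, 18.6, 11.6 and 9.91. Fhl1, a LIM-domain protein of muscle, had 356, 349, 207 and 300.1 CPM against 43.3, 35.6, 29.3 and 49.8. For each of the 3, every gate lay far above every Cdkn1c-high class, and both aged gates lay above both young ones.

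Other genes were lower in gated than in Cdkn1c-high cells. Spats2l had 101, 81.9, 117 and 71.4 CPM in gated cells, against 617, 515, 612 and 514 in Cdkn1c-high cells. The transcription factor Sox8 had 7.51, 6.44, 9.25 and 10.1 CPM against 74.97, 66.6, 76.8 and 68.6, and Igfbp7, a secreted binding protein, 94.3, 79.6, 90.9 and 48.6 against 493, 623, 376 and 306. Myog was lower in the gate than in these cells too, which had 4607, 4566, 4397 and 4509.7 CPM. All 16 measured G2 and M phase genes were lower in the gate in the 4 libraries, beside 41.4% of all genes, with the same limit on what was measured. At least 2 times lower were 7 of them, beside 2.55% of all genes. Each Cdkn1c-high class held 48 to 67 cells.

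Against the 1455 Ckm-positive cells, differences were few and small. Of 4830 genes, 0 stood 2 times or more higher (0.0%) and 0 likewise lower (0.0%) in every library. At 1.5 times 12 were higher (0.248%) and 10 lower (0.207%), and the median over all genes was 0.09, or -0.03 under median-of-ratios scaling. The adult sarcomere genes had a median of 0.03 and the embryonic ones of -0.04. Leaving out 1 library gave at most 5 genes at least 2 times higher, without aged soft. At 1.5 times Gstm1, a glutathione transferase, had 132, 146, 94.8 and 99.3 CPM in gated cells, against 66.0, 71.0, 45.2 and 34.6 in Ckm-positive cells. Stmn1, a microtubule destabiliser, had 49.5, 28.9, 87.9 and 77.5 CPM against 8.61, 13.0, 16.8 and 13.8. The Stmn1 level rested on few cells in part, since without the 3 highest cells of each gate it was 24.6, 18.9, 37.8 and 42.4 CPM.

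Among the genes lower in the gate than in Ckm-positive cells were several with muscle or metabolic roles. Apobec2, a cytidine deaminase family member of striated muscle, had 88.2, 92.2, 126 and 138 CPM in gated and 181, 179, 274 and 239.6 in Ckm-positive cells. Sct, the hormone secretin, had 382, 433, 1100.0 and 757 CPM against 812, 1109, 1863 and 1891. Gamt, an enzyme of creatine synthesis, had 119, 120.3, 176 and 113 CPM against 237, 234, 305 and 272. Apobec2 and Sct were lower in aged than in young libraries in both classes. Myot (myotilin, of the Z-disc) and Maged2 were the other 2 named beside Meg3, with log2 ratios of -1.15, -0.70, -1.35 and -1.27 for Myot and -0.83, -0.91, -0.93 and -1.08 for Maged2. Of the mitochondrially encoded genes 11 of 12 were lower in the gate in all 4 libraries, beside 10.7% of all genes, with a median of -0.14.

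The second question was how gated cells differ between the 4 libraries, beginning with aged against young. On stiff substrate 333 of 5609 genes stood 1.5 times or more higher (5.94%) and 439 lower (7.83%) in aged gated cells. On soft substrate 280 of 5672 were higher (4.94%) and 542 lower (9.56%). Medians over all genes were -0.06 on stiff and -0.07 on soft. These counts have no replicate check, and exact intervals of summed UMI ratios, which cover counting error only, reached a median of 12.6% and 12.9% from the ratio over the named genes.

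Gpx3, a secreted glutathione peroxidase, had 1120.0 and 1144 CPM in aged stiff and aged soft gates, against 241 and 199.5 in young stiff and young soft ones. Its ratio of summed UMIs was 4.54 (95% interval 4.20 to 4.91) on stiff and 5.68 (95% interval 5.24 to 6.18) on soft. Ndrg2, a gene of the N-myc downstream regulated family, had 195 and 177 CPM in aged and 42.7 and 35.6 in young gates. Scd1, a fatty acid desaturase, had 136 and 131 CPM in aged and 22.2 and 33.3 in young gates. All 3 were over 3 times higher in aged gated cells on both substrates, and they differed with age in the Ckm-positive cells as well, where Gpx3 had 988 and 869.7 CPM in aged and 197 and 136 in young libraries, Ndrg2 214 and 199.9 in aged and 43.9 and 37.8 in young ones, and Scd1 111 and 107 in aged and 23.2 and 26.8 in young ones. Ifitm3, an interferon-induced membrane protein, had 141 and 145 CPM in aged and 31.1 and 46.4 in young gates. Thbs1 (thrombospondin 1) and Fgf21 on stiff and Olfml3, R3hdml and Ip6k3 on soft substrate were also among the 6 highest. Olfml3 had 22.7 and 30.5 CPM in aged and 3.06 and 2.15 in young gates, and Ip6k3, an inositol phosphate kinase, 20.8 and 27.0 in aged and 5.42 and 2.39 in young ones.

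Lower in aged gates was Sln (sarcolipin, a regulator of the calcium pump), with 65.5 and 69.0 CPM in aged and 295 and 440.0 in young gates. The inhibin subunit gene Inha had 17.6 and 19.2 CPM in aged and 87.4 and 63.7 in young gates. Fgfbp1, a binding protein of fibroblast growth factors, had 4.64 and 3.33 CPM in aged and 46.9 and 37.0 in young gates. Aged and young gates did not overlap in any of these, also without the 3 highest cells of each gate, where Sln had 39.9 and 34.1 CPM in aged and 208 and 294 in young ones. The genes were picked by these same ratios, so the separation follows in part from that choice. How many of all measured genes separate likewise was not counted. In Ckm-positive cells Sln had 134 and 94.0 CPM in aged and 307 and 336 in young libraries. Fgfbp1, with 54.2% of its gated UMIs in 3 young stiff cells, had 1.90 and 0.820 CPM in aged and 17.7 and 18.2 in young gates without the highest cells. For other genes few cells set the direction: 3 young stiff cells held 96.6% of the gated UMIs of Mstn (myostatin) and 92.4% of those of Arhgap31. Without those cells the log2 ratio of aged over young stiff changed sign, to 0.26 for Mstn and 0.08 for Arhgap31. More than 50% of the UMIs in the higher library came from 3 cells for 4 of the 6 genes named as lowest on stiff and 5 of the 6 on soft, and for 0 of the 12 named as highest.

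Among the muscle genes of the gate, the adult sarcomere list was shifted with age more than the embryonic and cardiac-type one. Of 39 measured adult sarcomere genes, 12 were at least 1.5 times higher and 2 lower in aged gates on stiff, beside 5.94% and 7.83% of all genes, with a median of 0.30. On soft they were 11 and 4 of 39, beside 4.94% and 9.56% of all genes, with a median of 0.18. Of 22 measured embryonic and cardiac-type genes 11 were above and 11 below 0 on stiff, and likewise 11 and 11 on soft, where the median was -0.02. Of all measured genes 2425 were above and 3184 below 0 on stiff, and 2384 and 3288 on soft. Casq1 had 744 and 731 CPM in aged and 312 and 311 in young gates, with log2 ratios of aged over young of 1.24 on stiff and 1.22 on soft, and Atp2a1, the fast calcium pump, of 1.38 and 0.72. Within that list Myh7, the slow myosin (picked after its value was known), and Actc1 were lower in aged gates, at -1.49 on stiff and -2.09 on soft for Myh7 and -0.93 and -1.09 for Actc1, whereas Csrp3 had -0.04 and 0.24. Mymk and Myog differed less than Casq1, Myh7 and Actc1: Mymk had -0.12 and 0.08, and Myog -0.44 and -0.22. Among tubulin and microtubule genes Tuba1a had -1.87 on stiff and -1.13 on soft, while Map1lc3a, an autophagosome protein, had 1.39 and 1.42. Sox11, a factor of immature cells, had -1.50 and -1.46. The tubulin and microtubule list as a whole had medians of -0.51 on stiff and -0.42 on soft, beside -0.06 and -0.07 over all genes. In aged gates 6 and 5 of its 15 measured genes were at least 1.5 times lower, beside 7.83% and 9.56% of all genes.

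**Figure D5:**
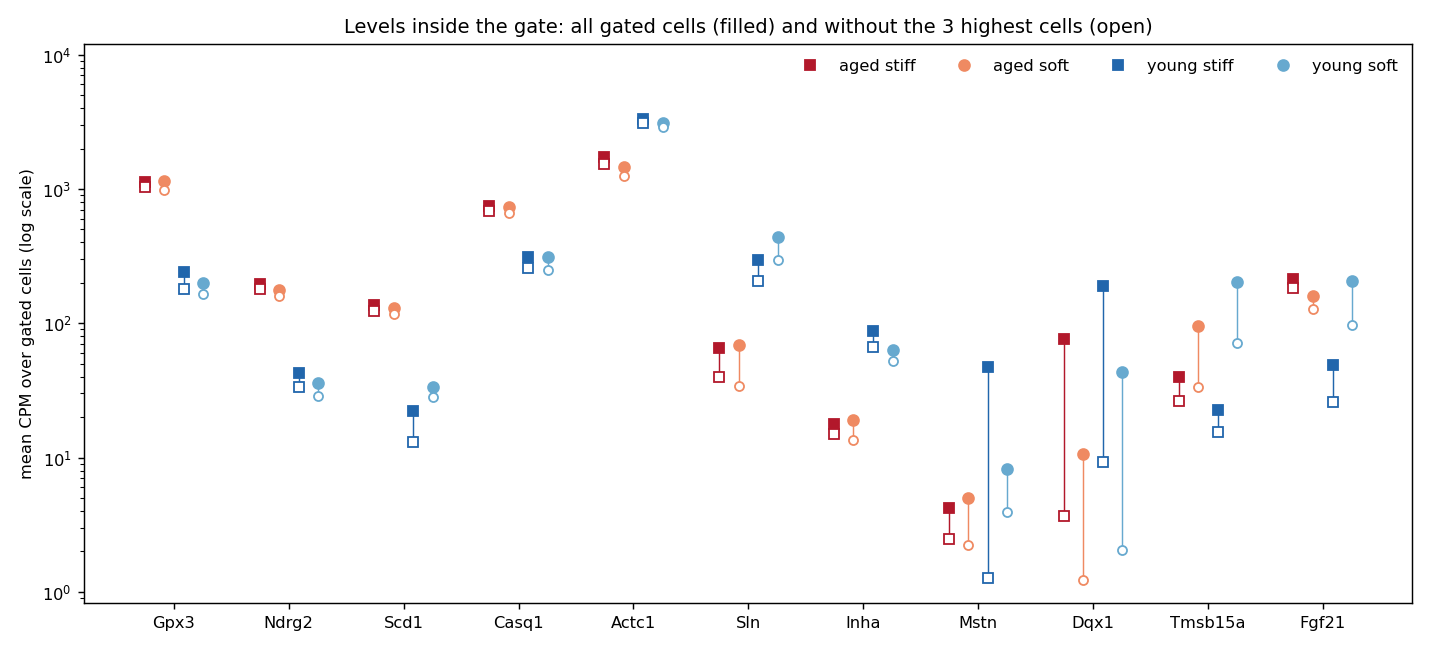
Filled points give the mean CPM over all gated cells of a library on a log scale, and open points the mean without the 3 gated cells with the highest level of that gene. Gpx3, Ndrg2, Scd1, Casq1, Actc1, Sln and Inha separate aged (red) from young (blue) gates with and without these cells, whereas Mstn and Dqx1 drop by over 10 times in young stiff cells when they are left out.

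Stiff and soft gates of 1 age were more alike. In aged gated cells 30 of 5367 genes stood 1.5 times or more higher on stiff (0.559%) and 9 lower (0.168%). In young gated cells 76 of 5636 were higher (1.35%) and 62 lower (1.1%). Medians over all genes were -0.00067 in aged and -0.02 in young gates, and the medians of the lists of sarcomere, calcium handling, endplate and fusion genes lay between -0.11 and 0.07. Mymk had a log2 ratio of stiff over soft of -0.0046 in aged and 0.20 in young gates, Myog of 0.04 and 0.25, and Myh3 of 0.08 and -0.13.

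Many of the genes with the largest stiffness ratios rested on few cells. Dqx1, which encodes an RNA helicase-like protein, had 76.8, 10.7, 188 and 43.3 CPM in the 4 gates, but without the 3 highest cells of each it had 3.67, 1.23, 9.35 and 2.04 CPM. Tmsb15a, a thymosin, had 39.8, 95.7, 22.8 and 204 CPM, and 26.3, 33.3, 15.5 and 70.9 without those cells. It remained lower on stiff than on soft substrate in both ages. Fgf21, a secreted stress hormone, had 213, 159, 49.1 and 207 CPM and 182, 128, 26.1 and 96.7 without the 3 highest cells, so young stiff stayed below young soft. More than 50% of the UMIs in the higher library came from 3 cells for 3 of the 6 genes named as highest and 2 of the 6 named as lowest in aged gates, and for 6 of 6 and 3 of 6 in young gates. The genes without such cells included Hmgb2 and Igfbp4 among the aged highest and Isca1 and Sema4d among the young lowest.

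A few gated cells carried transcripts of dividing cells. Of the 407, 8 had at least 3 UMIs of Top2a, the topoisomerase of dividing cells: 3 in aged stiff, 0 in aged soft, 1 in young stiff and 4 in young soft. Top2a had 17.9, 2.01, 41.0 and 59.9 CPM in gated cells, against 79.7, 104, 344 and 340.0 in the others, and 3 cells held 89.3%, 66.7%, 91.7% and 93.7% of its gated UMIs. The 7 measured G2 and M phase genes had a median ratio of stiff over soft of 0.87 in aged gates, and the 12 measured in young gates had one of -0.16. Their median of aged over young was -0.39 over 11 genes on stiff and -1.39 over 12 on soft, beside -0.06 and -0.07 over all genes. A gene that reached 20 CPM in only 1 of the compared gates had to be higher there to be measured. These medians describe the genes that passed and support nothing about the list. The part of these genes, and of the cells that carried them, in the lists of genes that differ between gates was not tested.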

How the data were processed

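The deposited tables hold log2(CPM + 1) per gene and cell, 1 table a library. Per the submitters' processing notes the authors used Cell Ranger 6.1.2 and Partek; the genome build, annotation and cell filters are not given in the sources used here. UMIs per cell were recovered by dividing each value's CPM by the cell's step, and 99.95 to 99.96% of values came out whole within 0.05. The 13772 genes had total counts per library as given above. Levels are mean CPM over cells, ratios use a pseudocount of 5 CPM and a minimum of 20 CPM, and no test was run, since the gate used measured values and each group is 1 library. Intervals are exact and cover counting error only.

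The members and the 27 gene lists were chosen with earlier results of these data known. Named genes were the 12 highest and 12 lowest against other cells, ranked by the library nearest 0, the 6 each way in each other comparison, and up to 8 per list by level or ratio. Actb, Actg1, Cbfa2t3, Cd9, Cfl1, Cfl2, Fn1, Myh7, Runx1, Sox11 and Tmem182 are named outside it, after their values were known. Of the genes the rule gives, 1 is not reported here. Alternatives were another pseudocount (1 CPM), no filter, summed UMIs, median-of-ratios scaling, Mymx limits of 6 and 8, quality filters, cells thinned to 10000 UMIs (seed 1), gated cells with no Ckm UMI and each library left out. Scripts were tested on simulated data. Python 3.11.15, numpy 2.4.6, scipy 1.17.1, pandas 2.3.3 and matplotlib 3.10.9 were used. Columns of other samples numbered 0.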

Additional observations from a re-analysis of the deposited data

How the results depend on the processing

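No paired analysis was possible because each group is 1 library and the labels give no shared replicate numbers. The fold of 1.5, the means without the 3 highest cells and the promoter search were chosen after seeing the data. Of 202 values, 140 stayed within 1.5 times or within their interval and 62 did not; the cause was not tested. Against all other cells, 0 higher and 127 lower genes became 15 and 272 at a fold of 1.5. The higher genes were 1 at a pseudocount of 1 CPM and 1 among cells with at least 1% mitochondrial counts, and the lower ones 191 with no filter and 73 on summed UMIs. Leaving out a library gave 0 to 1 higher (1 without aged soft, Sbk2) and 127 to 228 lower (228 without aged stiff). Against Cdkn1c-high cells, 157 higher and 136 lower became 328 and 427 at a fold of 1.5 and 98 and 81 in thinned cells, with 63 lower at a Mymx limit of 6. Against Ckm-positive cells, 0 higher and 0 lower became 12 and 10 at a fold of 1.5 and 14 and 1 at a Mymx limit of 6; 2 were higher at a pseudocount of 1 CPM, 2 in thinned cells and 1 with no filter. Leaving out a library there gave 0 to 5 higher (5 without aged soft, 2 without young soft, 1 without young stiff) and 0 to 1 lower (1 without aged stiff, aged soft or young stiff).

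Shares of gated cells were 11.7%, 12.4%, 8.10% and 7.35% at a Mymx limit of 6 and 5.29%, 5.18%, 3.24% and 2.87% at 8, so aged libraries stayed above young ones. Stiff over soft in aged gates, 30 higher and 9 lower became 114 and 57 with no filter, 111 and 34 at a Mymx limit of 8, 118 and 122 in thinned cells and 65 and 52 in cells with no Ckm UMI, with 10 higher at a Mymx limit of 6 and 14 lower at a pseudocount of 1 CPM. In young gates, 76 and 62 became 117 and 117 at a pseudocount of 1 CPM, 196 and 238 with no filter, 143 and 303 at 8, 477 and 456 in thinned cells and 139 and 180 with no Ckm UMI, with 35 lower at 6. Aged over young on stiff, 333 higher and 439 lower became 628 and 695 with no filter, and 793 lower in thinned cells. On soft, 280 and 542 became 515 and 931 with no filter, with 479 higher in thinned cells and 840 lower at a Mymx limit of 8.

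Of 1791 recomputed ratios of named genes against other cells, 79 moved by more than the spread over libraries. A change of sign was looked for only in genes at least 1.5 times apart in all 4 libraries, and no such change was seen. Signs of the other named genes, many of them near 0, were not followed. Between libraries, 7 of 528 changed sign. Mstn turned to -0.52 in young stiff over soft and to 0.26 in aged over young stiff without the 3 highest cells, and Arhgap31 to 0.084 in the second of these. Hist1h2ap in young stiff over soft turned to 0.013 at a Mymx limit of 8 and 1.07 in thinned cells, Arhgap31 to -0.32 in thinned cells, and Klf4 in aged stiff over soft to 0.046 with no Ckm UMI. With 70 to 150 gated cells a library, the number of cells limits values of genes that few cells carry.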

Other observations

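Of the small heat shock genes, most were somewhat higher in Mymx-high cells. Cryab, the crystallin chaperone of desmin and titin, had 2491, 2737, 2716 and 2814 CPM in gated cells, against 2261, 2172, 1866 and 1617 in the others. Of 8 measured small heat shock genes 5 were positive in all 4 libraries, beside 25.4% of all genes, with a median log2 ratio of 0.37, and Hspb6 lay the other way at -0.61, -0.75, -0.71 and -0.62. Itga7, the laminin receptor subunit of muscle, had 286, 282, 257 and 286 CPM in gated and 235, 218, 204 and 188 in other cells. Zyx (zyxin) and Tln2 (talin 2), proteins of focal adhesions, were lower in the gate, with log2 ratios of -1.005, -1.20, -1.27 and -1.50 and -1.21, -1.47, -1.68 and -2.19. Of 23 measured adhesion genes 9 were positive and 9 negative in all 4 libraries, beside 25.4% and 34.5% of all genes, with a median of -0.05.

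Members of the lipid and immediate early lists lay on both sides of 0. Lpl (lipoprotein lipase) had 9.39, 11.7, 37.0 and 9.29 CPM in gated and 40.5, 43.1, 89.8 and 92.5 in other cells. Fabp3, the muscle fatty acid binding protein, lay the other way at 497, 471, 583 and 581 against 379.6, 335, 365 and 325, beside a list median of -0.35. Egr1, an immediate early factor, had 22.2, 22.7, 34.9 and 50.8 CPM against 46.3, 56.7, 109 and 111, whereas Jun had 208, 207, 332 and 375 against 194, 178, 211 and 215. Zfp36l2, which recruits the deadenylation machinery to AU-rich transcripts, had 5.31, 6.84, 4.87 and 4.78 CPM in gated cells, against 32.3, 44.9, 75.1 and 84.9 in the others. It was 1 of 34 measured mRNA decay genes at least 2 times lower in all 4 libraries, close to the 2.4% of all genes.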
